A study of Mus musculus with 9 samples.

Results

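The cell programmes of the squamous histotype were described by setting the 2 metaplastic adenosquamous carcinomas (ASQC) of the series, MS1210.1 and MS1349.1, against its 6 adenocarcinomas of no special type (AC(NST)). The tumours were chosen by the diagnosis in their labels alone and make up 8 of the 9 tumours profiled, the other being a sarcoma that was not used. All 8 arose in BlgCre-NeuKI females. In these mice, Cre under the Blg promoter, which is active mainly in luminal cells without oestrogen receptor, excises a STOP cassette that otherwise silences NeuNT, an activated rat Neu inserted at the endogenous Erbb2 locus. Both alleles were heterozygous, the background was mixed FVB/C57Bl6, no mouse was treated, and ages were not given in the labels.

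Both ASQC came from parous mice and were not/low-amplified at the Erbb2/Neu locus. For MS1349.1, droplet digital PCR in the study gave no evidence of recombination of the STOP cassette or of amplification of the locus. Among the AC(NST), the high-amplified tumours were MS1163.1, MS1163.2 and MS1213.1, taken from virgin mice, and MS1155.3 and MS1218.2, taken from parous mice. The sixth AC(NST), MS1166.1, was not/low-amplified and its mouse was parous. Diagnosis, parity and amplification therefore overlapped, and MS1166.1 was the only AC(NST) that shared both of the other labels with the ASQC. The amplification labels follow the study's qPCR on genomic DNA. The study reports that droplet digital PCR instead scored MS1213.1 and MS1218.2 as low. Its exome data gave MS1213.1 as amplified and MS1218.2 as not amplified. A mouse number is shared by MS1163.2 and MS1163.1, so the 8 tumours stand for 7 mice, and MS1218.2 is the tumour that the study's methods except from their statement on tumour purity. RNA came from frozen pieces of tumour, each piece holding tumour cells and stroma, so fewer cells of a type and less RNA per cell cannot be told apart in any result below. Each tumour gave 1 library, and p-values measure the spread between tumours.

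The libraries held 23703980 (MS1210.1) and 23912429 (MS1349.1) counted reads in the ASQC and 12501225 to 18327792 in the AC(NST), and 12652 to 14120 genes reached 10 counts. The ASQC libraries were thus deeper than every AC(NST) library, which bears on genes near the limit of detection. Levels are given as normalized counts, that is, reads counted on a gene divided by a size factor for the library.

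In skin, keratinocytes of the basal layer carry Krt5 and Krt14 and are maintained by p63, the product of Trp63. As they move outwards they switch to Krt1 and Krt10 in the spinous layer and then build the cornified envelope, a shell of cross-linked proteins and lipids that seals the surface and is shed by proteases. The hair follicle is a further product of the same epithelium, in which an inner root sheath and a hair shaft are made from their own keratins under WNT and hedgehog signals. The mammary gland derives from the same embryonic ectoderm but normally makes a luminal layer with Krt8 and Krt18 and a contractile basal layer.

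The promoters of 5 genes are shown because these genes mark the cornified and the follicular arms of the squamous histotype described below. Each sequence is the 250 bases before the transcription start in RefSeq on build GRCm38.p6, written along the strand of the gene, with matches to the motifs searched in capitals. Rptn (chr3:93393449-93393698, plus strand) and Sprr1a (chr3:92485882-92486131, minus strand) encode precursors of the cornified envelope. Krt28 (chr11:99374904-99375153, minus strand) and Krt73 (chr15:101802361-101802610, minus strand) encode keratins of the inner root sheath, and Tchh (chr3:93442080-93442329, plus strand) encodes trichohyalin, which embeds the keratin of that sheath.
Rptn: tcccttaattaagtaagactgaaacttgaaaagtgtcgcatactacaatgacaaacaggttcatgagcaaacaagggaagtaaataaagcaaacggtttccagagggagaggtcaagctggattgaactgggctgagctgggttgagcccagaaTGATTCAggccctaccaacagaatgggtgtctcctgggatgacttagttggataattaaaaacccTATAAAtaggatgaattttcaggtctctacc
Sprr1a: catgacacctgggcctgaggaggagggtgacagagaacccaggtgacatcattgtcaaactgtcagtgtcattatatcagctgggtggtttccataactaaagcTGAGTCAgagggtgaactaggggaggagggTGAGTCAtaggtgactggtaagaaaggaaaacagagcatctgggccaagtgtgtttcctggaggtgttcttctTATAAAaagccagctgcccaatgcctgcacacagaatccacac
Krt28: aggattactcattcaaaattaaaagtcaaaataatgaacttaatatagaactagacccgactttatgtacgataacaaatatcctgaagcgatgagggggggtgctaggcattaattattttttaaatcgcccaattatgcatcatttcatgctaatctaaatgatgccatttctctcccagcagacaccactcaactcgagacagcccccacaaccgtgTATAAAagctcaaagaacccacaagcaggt
Krt73: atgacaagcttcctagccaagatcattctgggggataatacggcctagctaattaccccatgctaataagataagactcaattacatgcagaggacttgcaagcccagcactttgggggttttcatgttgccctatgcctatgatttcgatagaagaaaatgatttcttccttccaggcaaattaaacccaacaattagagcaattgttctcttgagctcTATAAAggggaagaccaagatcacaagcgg
Tchh: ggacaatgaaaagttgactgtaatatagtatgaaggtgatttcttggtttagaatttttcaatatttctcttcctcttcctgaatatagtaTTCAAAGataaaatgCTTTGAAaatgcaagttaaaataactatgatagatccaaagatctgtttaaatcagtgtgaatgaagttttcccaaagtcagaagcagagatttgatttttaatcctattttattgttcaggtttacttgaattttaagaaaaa

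Motifs were searched on both strands as the TATA box letters TATAAA, the AP-1 letters TGANTCA, the TCF/LEF letters CTTTGAT or CTTTGAA and the AP-2 letters GCCNNNGGC. A TATA box began 31 bases before the start in Rptn, 43 in Sprr1a and 30 in both Krt28 and Krt73. AP-1 matches began 96 bases before the start in Rptn and 146 and 116 in Sprr1a, and Tchh held 2 TCF/LEF matches beginning at 159 and 144. Of all 32851 windows in the reference (27025 genes), 12.4% held the TATA box, 6.75% the AP-1, 7.48% the TCF/LEF and 13.7% the AP-2 letters. Among windows of the cornified envelope list, 18 of 43 (41.9%) held the TATA box, 14 (32.6%) AP-1, 3 (6.98%) TCF/LEF and 2 (4.65%) AP-2 letters. Of the 17 windows of the inner root sheath list, 9 (52.9%) held a TATA box, 0 AP-1, 2 (11.8%) TCF/LEF and 2 (11.8%) AP-2 letters. So few windows cannot set 0 AP-1 matches apart from the 6.75% of all windows. In the canonical WNT list 3 of 26 windows (11.5%) held TCF/LEF letters. Hair shaft windows held a TATA box in 18 of 31 cases (58.1%), TCF/LEF letters in 9 (29%) and AP-1 letters in 3 (9.68%). Of 120 windows for 103 of the genes called higher in ASQC, 29 (24.2%) held a TATA box, 29 (24.2%) AP-1, 10 (8.33%) TCF/LEF and 16 (13.3%) AP-2 letters. These matches describe the letters in the windows and not binding, and several of the promoters lie in gene families that share sequence.

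Across the 14517 genes that reached 10 counts in 2 or more tumours, edgeR's quasi-likelihood test called 146 genes higher in ASQC (1.01% of those tested) and 3 lower (0.0207%) at an adjusted p under 0.05 and a fold over 2. The smallest adjusted p was 5.55e-05 and 1411 genes had an unadjusted p under 0.05. Of the called genes, 66 belonged to lists of epidermal, follicular, mammary and stromal genes and 80 to none. In 143 of the 146 both ASQC lay above all AC(NST), a pattern found in 914 of all tested genes (6.3%), while 713 (4.91%) lay below in both. Of the 146 genes, 84 reached 10 counts in no AC(NST) and so entered the test through the ASQC alone, so that they had to differ. The same held for 184 of all tested genes. The remaining 62 had at least 10 counts in some AC(NST). Requiring 10 counts in 3 tumours left 31 genes higher and 2 lower. With every library thinned to 12501225 reads, an alternative chosen after seeing the data, 114 were higher and 2 lower. The number higher fell to 70 without MS1210.1, 56 without MS1349.1, 69 without MS1213.1, 81 without MS1163.1, 95 without MS1163.2 and 83 without MS1218.2, and was 204 without MS1166.1, which also gave 47 lower.

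Diagnosis and amplification cannot be told apart in these tumours, beyond the values of MS1166.1. Adding amplification as a covariate, or setting the 2 ASQC against MS1166.1 alone, left 0 called genes by edgeR, with 1682 and 2887 genes at an unadjusted p under 0.05. Within the parous tumours alone 7 genes were called higher and 0 lower, and with parity as a covariate 19 and 1. By list, parity as a covariate left 4 cornified envelope, 3 inner root sheath, 2 desmosome, 1 spinous and 1 barrier gene called. It left 0 in the hair shaft, protease, wound keratin and outer root sheath lists. Among parous tumours alone 2 cornified envelope, 3 inner root sheath and 1 desmosome gene were called, and 0 in the other lists just named. The values of MS1166.1 are therefore given wherever they stood apart from the other AC(NST). Of 1838 genes in which both ASQC lay above all high-amplified AC(NST), MS1166.1 lay above these as well in 1151 (62.6%), against 2 of 16 in the cornified envelope list, 1 of 12 in the inner root sheath list, 2 of 22 in the hair shaft list, 4 of 11 in the spinous list, 2 of 4 wound keratins, 2 of 5 outer root sheath genes and 3 of 10 desmosome genes. The share was 7 of 13 for canonical WNT targets, 9 of 16 for transcription factors of stratified epithelium, 8 of 9 for luminal genes and 7 of 7 for cell cycle genes. These counts come from 1 tumour. In the cornified envelope, inner root sheath and hair shaft lists, 13 of 16, 8 of 15 and 18 of 28 tested genes had passed through the ASQC alone. In such genes every AC(NST), MS1166.1 included, was under 10 counts, so the shares of these lists cannot be set against the 62.6%. Of the 146 called genes, MS1166.1 had 0 counts in 66 and was the highest AC(NST) in 15.

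**Figure D1:**
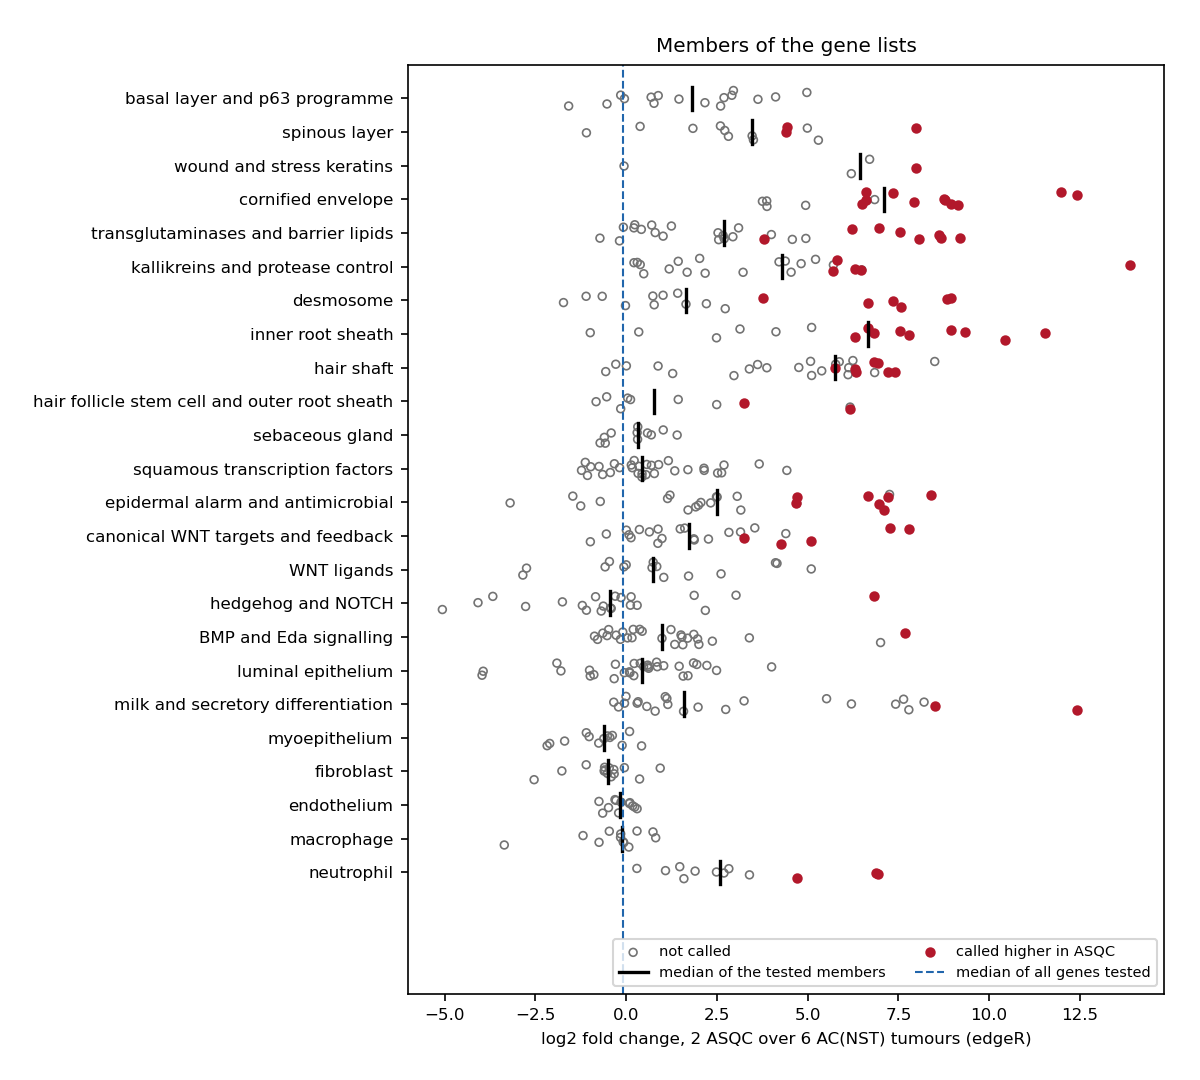
Log2 fold change between the 2 ASQC and the 6 AC(NST) (x axis) for each tested member of 24 gene lists (y axis). Filled points are the genes called higher by edgeR, black bars the medians, and the dashed line the median of all genes tested (-0.07). Folds of genes at or near 0 in the AC(NST) depend on the prior count of the fit. Called genes stand mostly in the cornified, barrier, protease, desmosome and follicular lists, and the myoepithelial, fibroblast, endothelial and macrophage lists hold none.

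The basal layer is the ground state of stratified epithelium. Of its 16 listed members, all tested, edgeR called 0, with 7 at an unadjusted p under 0.05, DESeq2 called 1 and limma-voom 2, and edgeR called 2 without MS1155.3. Both ASQC lay above all AC(NST) in 7, and the median log2 fold was 1.81 against -0.07 over all genes tested. Trp63, the master regulator of stratified epithelia, stood at 1142 (MS1210.1) and 1325 (MS1349.1) and at 13.1 to 743 (median 64.4) in the AC(NST), so that both ASQC exceeded the highest AC(NST), MS1155.3, by less than 2-fold (log2 fold 2.70 ± 1.11 SE, edgeR adjusted p = 0.466). Col17a1, a collagen that anchors basal keratinocytes in the hemidesmosome, had 3059 (MS1210.1) and 1832 (MS1349.1) and 9.44 to 325 (median 33.6) in the AC(NST). It did not overlap between the groups but missed the threshold (log2 fold 4.98 ± 1.06 SE, edgeR adjusted p = 0.0706). The basal keratin Krt14 reached 51708 (MS1210.1) and 5122 (MS1349.1), against 7.35 to 6495 (median 845) in the AC(NST), and overlapped because MS1166.1 (6495) lay above MS1349.1. Its partner Krt5 had 2602 (MS1210.1) and 1670.2 (MS1349.1) and 11.9 to 1392 (median 37) in the AC(NST), with MS1155.3 the highest of the AC(NST) and MS1166.1 the lowest. Itga6, the integrin of the hemidesmosome, overlapped, with 10709.6 (MS1210.1) and 31538 (MS1349.1) and 5453 to 22994 (median 13168) in the AC(NST). Its partner Itgb4 also overlapped, with 5854 (MS1210.1) and 4758 (MS1349.1) and 1849.7 to 15039.8 (median 7714) in the AC(NST). MS1155.3 was the highest AC(NST) for Trp63, Col17a1, Krt5 and Itga6.

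Of the 34 listed transcription factors of stratified epithelium 31 were tested, and edgeR called 0, with 12 at an unadjusted p under 0.05, while DESeq2 and limma-voom called 1 each and edgeR 2 without MS1166.1. Both ASQC lay above all AC(NST) in 11 of the 31, and the list median was a log2 fold of 0.44. Klf4, a factor of barrier formation, had 3208 (MS1210.1) and 911 (MS1349.1) and 122 to 780.4 (median 197) in the AC(NST). Grhl3, which drives late epidermal differentiation, had 814 (MS1210.1) and 549 (MS1349.1) and 2.78 to 127 (median 7.86) in the AC(NST), the highest being MS1166.1. In both genes the groups did not overlap and the adjusted p missed the threshold (edgeR adjusted p = 0.212 and 0.154). Ehf, an Ets factor of glandular and stratified epithelia, overlapped, with 19643 (MS1210.1) and 4499 (MS1349.1) and 4263 to 15031 (median 11654) in the AC(NST). MS1166.1 lay above all high-amplified AC(NST) in 9 of the 16 listed factors for which both ASQC did so.

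The spinous layer list had 3 called genes among its 13 tested members, of which 3 had passed the filter through the ASQC alone. Both ASQC lay above all AC(NST) in 11 of the 15 members in the files (the same pattern held in 5.97% of all 18484 genes). The 3 calls became 0 without MS1210.1 and 6 without MS1166.1, and DESeq2 called 10. Dmkn, dermokine, a secreted protein of upper epidermal layers, rose to 2436 (MS1210.1) and 1506 (MS1349.1), against 24.9 to 188 (median 90.5) in the AC(NST) (log2 fold 4.44 ± 0.61 SE, edgeR adjusted p = 0.0103). Krt80, a keratin of late differentiation, rose to 3971 (MS1210.1) and 799 (MS1349.1), against 33.6 to 296 (median 64.6) in the AC(NST) (log2 fold 4.41 ± 0.76 SE, edgeR adjusted p = 0.0275). Krt78 had 1224 (MS1210.1) and 118 (MS1349.1), against 0 to 4.97 (median 2.73) in the AC(NST) (log2 fold 7.98 ± 1 SE, edgeR adjusted p = 0.00644), and was the most uneven of the 3 between the ASQC. The classical spinous pair of interfollicular skin stayed low in absolute terms. Krt1 had 27.4 (MS1210.1) and 113 (MS1349.1) and 0 to 4.76 (median 2.34) in the AC(NST), and Krt10 42.9 (MS1210.1) and 140.3 (MS1349.1) and 8.33 to 20.6 (median 12.5) in the AC(NST). Krt2, the keratin of the uppermost living layers, was at 0 in MS1210.1 and at 0.731 in MS1349.1. The spinous programme of ASQC therefore had Krt1 and Krt10 above every AC(NST), without reaching the test's threshold (edgeR adjusted p = 0.0672 and 0.0781), and almost no Krt2.

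Among keratins of wounded or hyperproliferative epidermis, Krt6a and Krt16 were among the most abundant keratins of MS1210.1. In MS1349.1 each wound keratin lay below Krt8, Krt19 and Krt14. Krt6a had 14818 (MS1210.1) and 2496 (MS1349.1), against 0 to 419 (median 10.9) in the AC(NST), and Krt16, its partner, 12808 (MS1210.1) and 1626 (MS1349.1), against 0 to 282 (median 27.3) in the AC(NST). In both, each ASQC lay above all AC(NST), with edgeR adjusted p of 0.128 and 0.135. Krt6b rose to 5376 (MS1210.1) and 954 (MS1349.1), against 0 to 69.6 (median 1.55) in the AC(NST) (log2 fold 7.98 ± 1.52 SE, edgeR adjusted p = 0.0444), a call that was lost without any tumour but MS1155.3, with the tumours of the same mouse summed and at 10 counts in 3 tumours. Krt6a and Krt6b are close copies, so reads between them may have been lost or misassigned. Krt17, the fourth wound keratin, did not separate the groups: it had 1588 (MS1210.1) and 1724 (MS1349.1), and 8476 in MS1166.1. Per kilobase of exon, normalized counts of Krt6a were 6128 in MS1210.1 and 1032 in MS1349.1, against 6.21 and 25.6 for Krt1 and 20.3 and 66.4 for Krt10. On that scale the wound keratin exceeded the spinous pair in both ASQC.

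**Figure D2:**
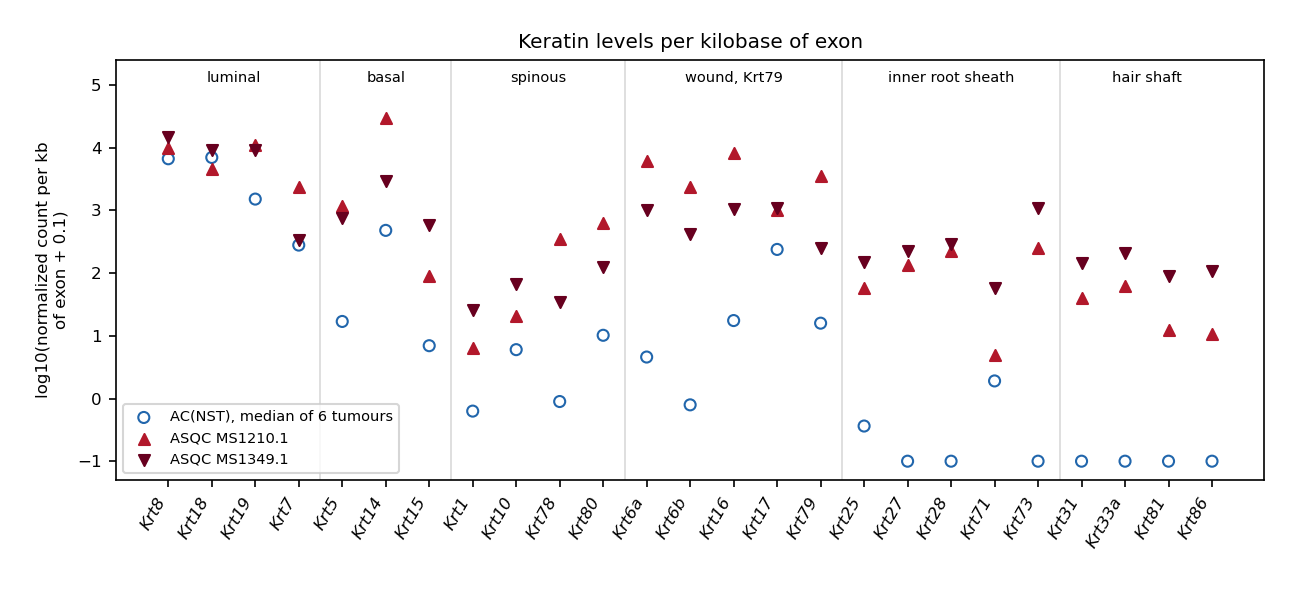
Levels of 25 keratins as log10 of normalized counts per kilobase of exon plus 0.1 (y axis), for the median of the 6 AC(NST) (open circles) and for each ASQC (triangles). Krt8 and Krt18 lay close to the AC(NST) median, Krt6a, Krt6b and Krt16 far above it, and Krt1 and Krt10 low in all. Points at -1 are at 0.

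Of 45 listed genes of the cornified envelope in the files, both ASQC lay above all AC(NST) in 40 and 21 were counted in both ASQC and in no AC(NST), as were 116 of all genes in the files. The ASQC libraries were also the deepest. Only 16 passed the filter, 13 of them through the ASQC alone, and 11 of the 16 were called (10 without MS1210.1, 7 without MS1349.1, 10 in thinned libraries, and 1 of 3 tested at 10 counts in 3 tumours). Rptn, repetin, a filament-binding precursor of the envelope, rose to 8180.4 (MS1210.1) and 3066 (MS1349.1), against 0 to 2.38 (median 0.944) in the AC(NST) (log2 fold 12.41 ± 0.63 SE, edgeR adjusted p = 5.55e-05). Sprr1a, a small proline-rich protein that transglutaminases cross-link, rose to 2836 (MS1210.1) and 661 (MS1349.1), against 0.963 to 10.3 (median 1.81) in the AC(NST) (log2 fold 9.13 ± 0.77 SE, edgeR adjusted p = 0.000811). Both promoters are printed above. Asprv1, a protease that processes profilaggrin, rose to 31158 (MS1210.1) and 3966 (MS1349.1), against 7.35 to 374 (median 203) in the AC(NST) (log2 fold 6.51 ± 1.27 SE, edgeR adjusted p = 0.0491) and reached 20141 and 2564 normalized counts per kilobase of exon, against 1973 and 739.6 for Rptn. Crct1 rose to 963 (MS1210.1) and 558 (MS1349.1), against 0 to 5.55 (median 0.482) in the AC(NST) (log2 fold 8.79 ± 0.91 SE, edgeR adjusted p = 0.00239). Cnfn, cornifelin, had 1 read in all AC(NST) together and 2183 (MS1210.1) and 294 (MS1349.1), a pooled ratio of 6902 (95% counting interval 1239 to 272605). For all genes with 1 to 3 reads in the AC(NST), the ratio is of summed normalized levels and its interval covers counting error only.

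Other envelope genes were called at lower levels. Ivl, involucrin, had 30.9 (MS1210.1) and 60.6 (MS1349.1), no AC(NST) exceeding 0.963, a pooled ratio of 125 (34.6 to 1032). Hrnr, hornerin, had 83 (MS1210.1) and 339.7 (MS1349.1) and a ratio of 574 (159 to 4738). Both had far fewer counts than Rptn. Kprp had 76.7 (MS1210.1) and 74.5 (MS1349.1) and Sprr1b 22.5 (MS1210.1) and 74.5 (MS1349.1), and both were called. Lor, loricrin, the main envelope protein of normal skin, was counted at only 0.703 (MS1210.1) and 20.5 (MS1349.1) and did not pass the filter. The late envelope families were detected but sparse: of the Lce and Sprr2 genes in the files, Sprr2a3 had the most, with 24.6 (MS1210.1) and 582 (MS1349.1), and was called, and Sprr2h followed with 1.41 (MS1210.1) and 44.6 (MS1349.1). These families are near copies of each other, and reads that fit several positions were dropped, so their levels are uncertain. Lor was thus close to the limit of detection in MS1210.1, unlike Rptn and Sprr1a.

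**Figure D3:**
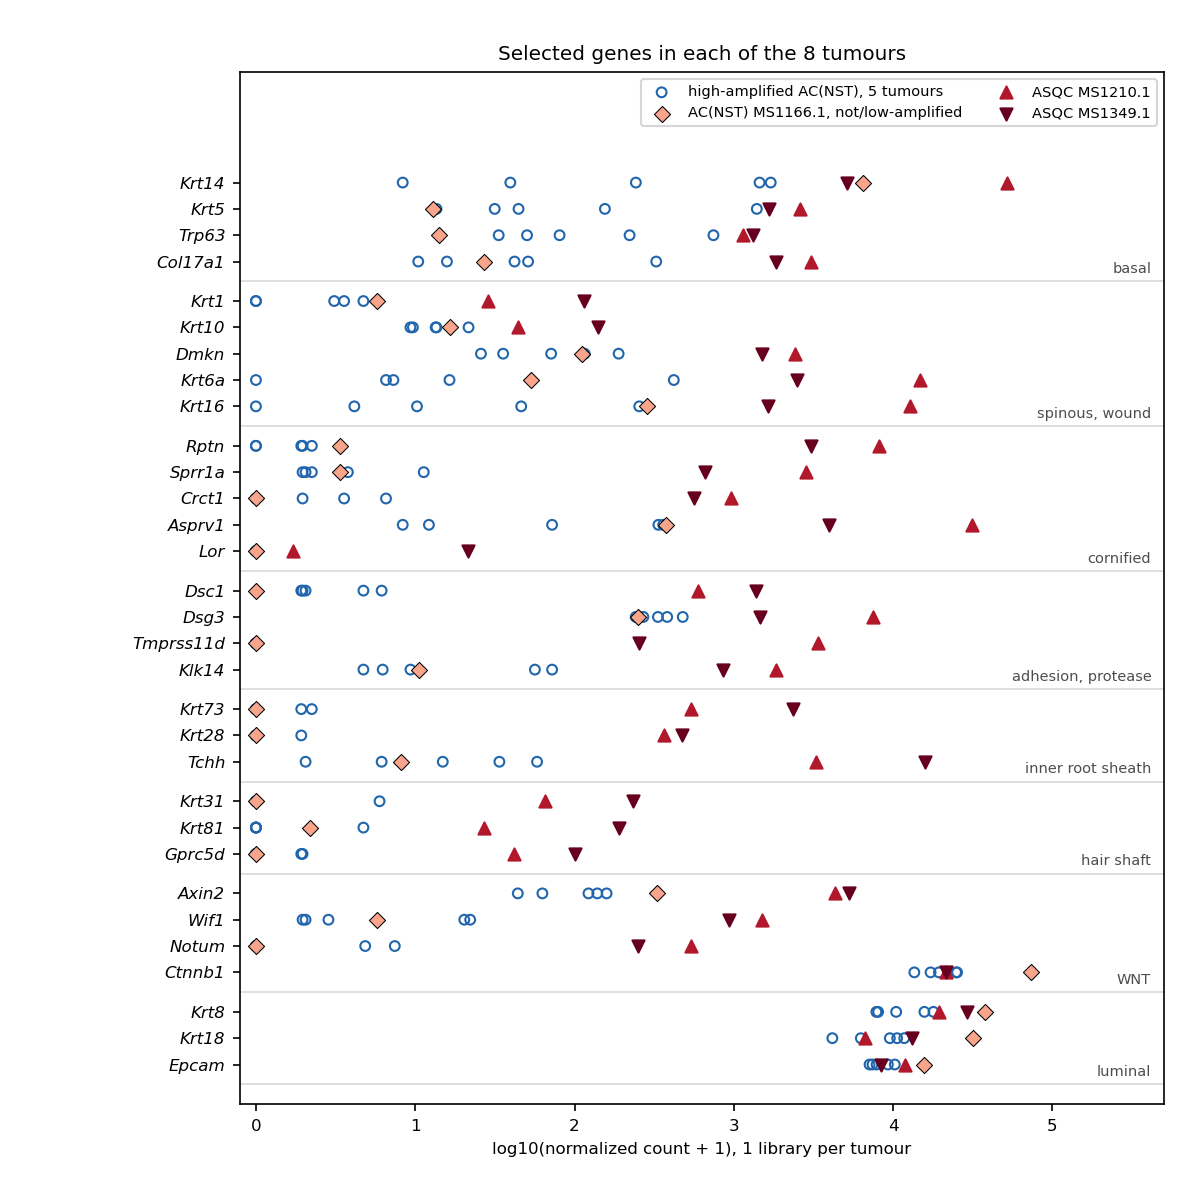
Normalized counts of 31 genes in each tumour, as log10 of the count plus 1 (x axis), with 1 point per tumour. Triangles are the ASQC, circles the 5 high-amplified AC(NST) and diamonds MS1166.1. The genes were picked for display, and the adhesion and protease rows hold called genes only. In the cornified, adhesion and follicular rows shown both triangles lie to the right of every AC(NST), whereas Krt8, Krt18, Epcam and Ctnnb1 overlap. Members of the same lists that are not shown, such as Dsg2, Dsp, Jup and Klk10, overlapped.

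Of the enzymes of the barrier, 8 of 27 tested members were called, and both ASQC lay above all AC(NST) in 17 of the 29 in the files. Of the 27 tested, 6 had passed the filter through the ASQC alone. The 8 calls became 3 without MS1210.1, 4 without MS1349.1, 5 without MS1218.2, and 2 of 21 tested at 10 counts in 3 tumours. They covered both the ceramide and the cross-linking arms. Elovl4, which makes the very long fatty acids of barrier ceramides, rose to 1112 (MS1210.1) and 892 (MS1349.1), against 1.93 to 42.5 (median 4.06) in the AC(NST) (log2 fold 6.21 ± 0.97 SE, edgeR adjusted p = 0.018). Cers3, the ceramide synthase that uses them, rose to 2169 (MS1210.1) and 1159 (MS1349.1), against 22 to 261 (median 106) in the AC(NST) (log2 fold 3.80 ± 0.63 SE, edgeR adjusted p = 0.0242). Cyp4f39, the fatty acid omega-hydroxylase of the same chain, rose to 1492 (MS1210.1) and 378 (MS1349.1), against 0 to 18 (median 0) in the AC(NST) (log2 fold 8.08 ± 1.31 SE, edgeR adjusted p = 0.0216). Pnpla1, which acylates the ceramides, rose to 499 (MS1210.1) and 256 (MS1349.1), against 0 to 5.15 (median 3.78) in the AC(NST) (log2 fold 6.95 ± 0.89 SE, edgeR adjusted p = 0.00726). These 4 genes act one after another in making the acylceramides of the barrier. Sdr9c7, a later dehydrogenase of this pathway, had 274 (MS1210.1) and 129 (MS1349.1) and a pooled ratio of 558 (154 to 4608). Acer1, an epidermal ceramidase, was at 0 in all AC(NST) and at 87.9 (MS1210.1) and 54.8 (MS1349.1), at least 131-fold higher when 3 reads over all AC(NST) are allowed.

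Tgm3, the transglutaminase of late epidermis and hair, rose to 83.7 (MS1210.1) and 937 (MS1349.1), against 0 to 6.3 (median 2.46) in the AC(NST) (log2 fold 7.55 ± 0.996 SE, edgeR adjusted p = 0.0082). Tgm1, the membrane-bound transglutaminase, had 2023 (MS1210.1) and 1686 (MS1349.1) and 48.3 to 713 (median 293) in the AC(NST) and was not called (edgeR adjusted p = 0.263). Abca12, the lipid transporter of lamellar granules, had 2591 (MS1210.1) and 411 (MS1349.1) and 8.33 to 190.3 (median 19) in the AC(NST), with MS1166.1 the highest AC(NST) (edgeR adjusted p = 0.0713). Slc27a4, a fatty acid transporter that many cell types use, overlapped between the groups, with 1758 (MS1210.1) and 1582 (MS1349.1) and 804 to 3019 (median 1972) in the AC(NST). Alox12e was high in MS1166.1 (3245) and lower in both ASQC (127 and 519).

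Proteases shed the surface layer and their inhibitors restrain them. Of 22 tested genes in the list, 5 were called, and both ASQC lay above all AC(NST) in 15 of the 24 in the files. Of the 22 tested, 6 had passed the filter through the ASQC alone. The 5 calls became 0 without MS1210.1, 2 without MS1349.1 or MS1163.1, 3 without MS1213.1, MS1163.2 or MS1155.3, 1 without MS1218.2, and 1 with the tumours of the same mouse summed or at 10 counts in 3 tumours. Tmprss11d, a membrane serine protease of squamous and airway surfaces, was at 0 in all 6 AC(NST) and at 3367 (MS1210.1) and 254 (MS1349.1), at least 3369-fold higher. Tmprss11e rose to 741 (MS1210.1) and 183 (MS1349.1), against 2.38 to 23.1 (median 5.84) in the AC(NST) (log2 fold 5.80 ± 0.78 SE, edgeR adjusted p = 0.00919). Klk14, a kallikrein that degrades the desmosomes of the horny layer, rose to 1833 (MS1210.1) and 851 (MS1349.1), against 3.73 to 71.3 (median 8.92) in the AC(NST) (log2 fold 5.69 ± 0.97 SE, edgeR adjusted p = 0.0263). Csta1, a cystatin of the protease inhibitor family, rose to 146 (MS1210.1) and 40.9 (MS1349.1), against 0 to 3.73 (median 0) in the AC(NST) (log2 fold 6.47 ± 1.16 SE, edgeR adjusted p = 0.0337). Other kallikreins were spread more widely. Klk10 had 7825 (MS1210.1) and 1997 (MS1349.1), and 5285 in MS1213.1 and 2972 in MS1155.3, and so overlapped. The trypsin-like protease St14 and its partner Prss8, found in most epithelia, also overlapped, with 5409 (MS1210.1) and 6117 (MS1349.1) and 3025 to 7751 (median 4417) in the AC(NST) for St14. Spink5, the inhibitor of the kallikreins, had 2682 (MS1210.1) and 1342 (MS1349.1) and 2292 in MS1166.1.

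Desmosomes are the spot junctions of epithelia. Of 17 tested members 6 were called, and all 6 were desmosomal cadherins of stratified epithelium. Both ASQC lay above all AC(NST) in 8 of the 17, and 3 had passed through the ASQC alone. The 6 calls became 3 without MS1210.1, MS1349.1 or MS1218.2, and 1 of 14 tested at 10 counts in 3 tumours. Dsc1 rose to 594 (MS1210.1) and 1366 (MS1349.1), against 0 to 5.15 (median 1.01) in the AC(NST) (log2 fold 8.95 ± 0.73 SE, edgeR adjusted p = 0.000619). Dsg3, the desmoglein of lower epidermal layers, rose to 7488 (MS1210.1) and 1449 (MS1349.1), against 241 to 477 (median 301) in the AC(NST) (log2 fold 3.78 ± 0.49 SE, edgeR adjusted p = 0.00758). Dsc3 rose to 1113 (MS1210.1) and 773 (MS1349.1), against 0 to 34.8 (median 2.52) in the AC(NST) (log2 fold 6.67 ± 1.14 SE, edgeR adjusted p = 0.0275). Dsg4, the desmoglein of hair, rose to 55.6 (MS1210.1) and 533 (MS1349.1), against 0 to 7.46 (median 0.463) in the AC(NST) (log2 fold 7.36 ± 1.21 SE, edgeR adjusted p = 0.0233) and was higher in MS1349.1. Dsg1a and Dsg1b, close copies that share reads, were also called, with 386 (MS1210.1) and 754 (MS1349.1) for Dsg1a. In contrast Dsg2, the desmoglein of simple epithelia, had 4637 (MS1210.1) and 3554 (MS1349.1) and 1770.0 to 5573 (median 4466) in the AC(NST). The shared plaque proteins overlapped too: Dsp had 25603 (MS1210.1) and 6936 (MS1349.1) and 5055 to 9811 (median 8179) in the AC(NST), and Jup 19781 (MS1210.1) and 9233 (MS1349.1) and 3486 to 12662 (median 8547) in the AC(NST). Perp, a desmosomal membrane protein, stood at 81323 in MS1166.1 and at 9718 (MS1210.1) and 4158 (MS1349.1).

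Of 16 inner root sheath genes in the files, both ASQC lay above all AC(NST) in 12, and 9 of 15 tested were called, 8 of the tested having passed through the ASQC alone. Tchh, also in the cornified envelope list, and Tgm3, also in the barrier list, were among the 9 calls and were counted in both lists. The 9 calls became 5 without MS1210.1, 3 without MS1349.1, 4 without MS1218.2, MS1213.1 or MS1163.1, 5 without MS1155.3, 6 without MS1163.2 or with the tumours of the same mouse summed, 7 in thinned libraries, and 1 of 7 tested at 10 counts in 3 tumours. Krt73 had 2 reads in all AC(NST) together and 537 (MS1210.1) and 2343 (MS1349.1), a pooled ratio of 3909 (1082 to 32274). Krt28 had 1 read in the AC(NST) and 362 (MS1210.1) and 471 (MS1349.1), a ratio of 2284 (409.8 to 90195). Krt27 rose to 209.6 (MS1210.1) and 345 (MS1349.1), against 0 to 7.46 (median 0) in the AC(NST) (log2 fold 7.78 ± 1.27 SE, edgeR adjusted p = 0.0223), and Krt25 to 113 (MS1210.1) and 301 (MS1349.1), against 0 to 7.46 (median 0.525) in the AC(NST) (log2 fold 6.30 ± 1.17 SE, edgeR adjusted p = 0.0402). Krt72 was at 0 in all AC(NST) and at 47.8 (MS1210.1) and 108 (MS1349.1), at least 142-fold higher. These keratins form the type I and type II partners of the sheath. Tchh rose to 3292 (MS1210.1) and 15830.0 (MS1349.1), against 1.05 to 57.2 (median 10.5) in the AC(NST) (log2 fold 8.94 ± 1.05 SE, edgeR adjusted p = 0.00503). The deiminases Padi1 and Padi3, which modify trichohyalin, stood above every AC(NST), Padi1 with 304 (MS1210.1) and 639 (MS1349.1) and Padi3 with 239.8 (MS1210.1) and 532 (MS1349.1), and were not called (edgeR adjusted p = 0.156 and 0.16). Gata3 and Cux1, regulators of the sheath that mammary cells also use, overlapped, with 632 (MS1210.1) and 1077 (MS1349.1) and 758 to 2947 (median 1441) in the AC(NST) for Gata3.

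Of 36 hair shaft genes in the files, both ASQC lay above all AC(NST) in 25, and 7 of 28 tested were called, 18 of the tested having passed through the ASQC alone. The 7 calls became 3 in thinned libraries and without MS1210.1, 2 without MS1213.1 or MS1155.3, 1 without MS1163.1 or MS1218.2, 0 without MS1349.1, and 0 of 10 tested at 10 counts in 3 tumours. Hair keratins and keratin-associated proteins of cortex and cuticle were both present. Krt31 rose to 64 (MS1210.1) and 232 (MS1349.1), against 0 to 4.97 (median 0) in the AC(NST) (log2 fold 7.40 ± 1.26 SE, edgeR adjusted p = 0.0269), and Krt81 to 26 (MS1210.1) and 188 (MS1349.1), against 0 to 3.73 (median 0) in the AC(NST) (log2 fold 6.94 ± 1.21 SE, edgeR adjusted p = 0.0299). Krtap16-1, a keratin-associated protein, had 1 read in the AC(NST) and 12.7 (MS1210.1) and 36.5 (MS1349.1), a pooled ratio of 134 (24 to 5287). Gprc5d, a receptor known from hair-forming cells, had 40.8 (MS1210.1) and 100.1 (MS1349.1) and a ratio of 192 (53.1 to 1585). Shh, the hedgehog ligand of the hair matrix, had 9.85 (MS1210.1) and 59.2 (MS1349.1) and a ratio of 187 (33.6 to 7387). In each of these genes MS1349.1 was the higher ASQC. MS1163.2 was the AC(NST) with the most Krt31, Krt81 and Krt33a, and had 23.6 of Krt33a against 127 (MS1210.1) and 429 (MS1349.1). The transcription factors of the hair matrix were low: Hoxc13 had 7.74 (MS1210.1) and 19.7 (MS1349.1) and 0 in every AC(NST), and Foxn1 7.03 (MS1210.1) and 18.3 (MS1349.1). Tnfrsf19 and Selenbp1, which other cells express, overlapped, with 1187 (MS1210.1) and 1209.9 (MS1349.1) and 169 to 2544 (median 997) in the AC(NST) for Tnfrsf19.

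Other parts of the follicle gave fewer calls. Among 10 tested genes of the outer root sheath and follicle stem cells 2 were called, and both ASQC lay above all AC(NST) in 4 of the 14 in the files. The calls became 0 without MS1210.1, MS1218.2 or MS1163.2, with the tumours of the same mouse summed and at 10 counts in 3 tumours, and 1 without any other tumour but MS1166.1. Lgr5, a receptor of cycling follicle stem cells, rose to 601 (MS1210.1) and 496 (MS1349.1), against 14.7 to 120.4 (median 49.8) in the AC(NST) (log2 fold 3.25 ± 0.60 SE, edgeR adjusted p = 0.0402). Krt79, a keratin of the upper follicle duct, rose to 16802 (MS1210.1) and 1204 (MS1349.1), against 21.1 to 380.0 (median 75.2) in the AC(NST) (log2 fold 6.16 ± 1.07 SE, edgeR adjusted p = 0.0293). Stem cell genes of the bulge did not separate the groups: Cd34 had 564 (MS1210.1) and 909.6 (MS1349.1) and 322 to 2952 (median 838) in the AC(NST), Nfatc1 362 (MS1210.1) and 378 (MS1349.1) and 124 to 839 (median 215) in the AC(NST), and Lhx2 at most 3.65 in an ASQC. The sebaceous list had 0 called genes by edgeR among 11 tested and 0 at an unadjusted p under 0.05. Scd1, the desaturase of sebum and milk fat, had 16522 (MS1210.1) and 30617 (MS1349.1) and 7318 to 41867 (median 13987) in the AC(NST). Genes closer to the gland itself, such as Mc5r and Awat1, had at most 1.46 normalized counts in either ASQC.

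Canonical WNT signalling drives hair fate in skin and induces its own inhibitors. Of 24 tested members 5 were called, and both ASQC lay above all AC(NST) in 11 of the 29 in the files. The median log2 fold of the tested members was 1.74, and 2 of them had passed through the ASQC alone. The 5 calls became 3 without MS1210.1, and 3 of 22 tested at 10 counts in 3 tumours. In 7 of the 13 members in which both ASQC lay above all high-amplified AC(NST), MS1166.1 did so too. The list summed to 58473 in MS1166.1, against 59092 (MS1210.1), 45732 (MS1349.1) and 22831 to 36744 in the high-amplified AC(NST). Axin2, the standard negative feedback gene, rose to 4341 (MS1210.1) and 5250.1 (MS1349.1), against 43 to 328 (median 129.6) in the AC(NST) (log2 fold 5.09 ± 0.59 SE, edgeR adjusted p = 0.00429), with MS1166.1 the highest AC(NST). Notum, which inactivates WNT ligands, rose to 539 (MS1210.1) and 249.9 (MS1349.1), against 0 to 6.44 (median 0) in the AC(NST) (log2 fold 7.78 ± 1.14 SE, edgeR adjusted p = 0.0137). Wif1, a secreted WNT inhibitor, rose to 1507 (MS1210.1) and 931 (MS1349.1), against 0.963 to 21.1 (median 3.3) in the AC(NST) (log2 fold 7.26 ± 0.93 SE, edgeR adjusted p = 0.00726). Apcdd1, a membrane inhibitor found in hair follicles, rose to 959 (MS1210.1) and 3312 (MS1349.1), against 53.5 to 301 (median 71.2) in the AC(NST) (log2 fold 4.28 ± 0.66 SE, edgeR adjusted p = 0.0176). All of these act against the pathway that induces them. Lgr5, described above, was the fifth. Tcf7, a transcription factor and target, had 505 (MS1210.1) and 425 (MS1349.1) and 43 to 158 (median 91.8) in the AC(NST) and missed the threshold (edgeR adjusted p = 0.118). Myc had 968 (MS1210.1) and 1100.3 (MS1349.1) and 409.6 to 1299 (median 519) in the AC(NST), and Ccnd1 8330.2 (MS1210.1) and 4981 (MS1349.1) and 5008 to 34169.8 (median 8187) in the AC(NST), so that both overlapped. Ctnnb1, which encodes beta-catenin itself, overlapped as well, at 21488 (MS1210.1) and 21365 (MS1349.1), with MS1166.1 far above at 73640.0.

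No WNT ligand was called by edgeR among 15 tested, of which 4 had an unadjusted p under 0.05, and DESeq2 and limma-voom called 1 each. Wnt5a had 2589.7 (MS1210.1) and 5728 (MS1349.1) and 92.8 to 1664 (median 593) in the AC(NST) and did not overlap. Wnt10a, a ligand of hair placodes, had 168 (MS1210.1) and 137 (MS1349.1) and 0 to 14.2 (median 1.71) in the AC(NST) and also stood apart (edgeR adjusted p = 0.0957). In the hedgehog and NOTCH list edgeR called Shh, 1 of 21 tested, which had passed the filter through the ASQC alone, and DESeq2 called 3. The edgeR call was lost without any of the high-amplified AC(NST) or MS1349.1, in thinned libraries and at 10 counts in 3 tumours. Its target Gli1 had 49.9 (MS1210.1) and 66.5 (MS1349.1), against 7.7 to 16.7 (median 13.4) in the AC(NST). It did not overlap between the groups and was not called. Notch receptors overlapped, with Notch1 at 5429.7 (MS1210.1) and 6404 (MS1349.1) and at 2597 to 13100.1 (median 7135) in the AC(NST). Hey1, a NOTCH target, lay below all AC(NST) in both ASQC, at 108 (MS1210.1) and 180.5 (MS1349.1) and 504 to 5661 (median 2210.2) in the AC(NST), without passing the test (edgeR adjusted p = 0.109). The BMP and Eda list also holds FGF and EGF-family ligands and receptors, with Egfr and Tgfa among its most abundant members. In this list 1 of 27 tested genes was called: Grem1, a BMP antagonist, rose to 1990.4 (MS1210.1) and 39.5 (MS1349.1), against 0 to 12.5 (median 3.44) in the AC(NST) (log2 fold 7.68 ± 1.20 SE, edgeR adjusted p = 0.018). This call was lost without MS1210.1, MS1163.1, MS1163.2 or MS1218.2.

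Antimicrobial and alarm genes of keratinocytes were called in 7 of 24 cases, and both ASQC lay above all AC(NST) in 17, with 6 members having passed through the ASQC alone. The 7 calls became 2 without MS1210.1, 3 without MS1349.1 or MS1213.1, 4 without MS1218.2, and 3 of 17 tested at 10 counts in 3 tumours. S100a7a rose to 2485 (MS1210.1) and 382 (MS1349.1), against 1.85 to 10.3 (median 3.65) in the AC(NST) (log2 fold 8.40 ± 0.72 SE, edgeR adjusted p = 0.000821). S100a9, made by neutrophils and by activated keratinocytes, rose to 601 (MS1210.1) and 961 (MS1349.1), against 4.2 to 65.4 (median 27.4) in the AC(NST) (log2 fold 4.72 ± 0.75 SE, edgeR adjusted p = 0.019). Il1f9 and Il1f6, epidermal members of the interleukin-36 group, rose to 571 (MS1210.1) and 185 (MS1349.1), against 0 to 9.63 (median 2.71) in the AC(NST) for Il1f9, and to 139 (MS1210.1) and 169.5 (MS1349.1), against 0 to 4.76 (median 0) in the AC(NST), for Il1f6 (edgeR adjusted p = 0.0157 and 0.0172). Cxcl5, which attracts neutrophils, rose to 376 (MS1210.1) and 629 (MS1349.1), against 7.14 to 31.5 (median 19.2) in the AC(NST) (log2 fold 4.68 ± 0.50 SE, edgeR adjusted p = 0.00281). Defb1, an epithelial defensin, rose to 92.8 (MS1210.1) and 877 (MS1349.1), against 0 to 20.6 (median 1.06) in the AC(NST) (log2 fold 6.96 ± 1.36 SE, edgeR adjusted p = 0.0491). Lcn2 and Chil1, highly counted in all tumours, overlapped: Lcn2 had 22239.9 (MS1210.1) and 37256 (MS1349.1) and 32013 to 175838 (median 48118) in the AC(NST), and Chil1 6429.8 (MS1210.1) and 6033 (MS1349.1) and 3563 to 119840.0 (median 43949) in the AC(NST).

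Neutrophil genes were called beside these. Of 12 tested members 3 were called (1 without MS1210.1 or MS1213.1, 2 without MS1218.2 and 0 without MS1349.1), and both ASQC lay above all AC(NST) in 10 of the 17 in the files, with summed levels of 5286 and 4270.4 against 267 to 1758. The called genes were S100a9 and the stefins Stfa3 and BC100530, which keratinocytes can also make. S100a8 had 2322 (MS1210.1) and 1975 (MS1349.1), against 48.8 to 1264 (median 225) in the AC(NST), and Mmp9 1601 (MS1210.1) and 346 (MS1349.1), against 47.7 to 426 (median 76.6) in the AC(NST), and neither was called. All 12 tested members had a fold above 0, as did 6560 of all 14517 tested genes. Of the 12, 4 had passed the filter through the ASQC alone, so that they had to be higher. Csf3r, the receptor for granulocyte growth factor, had 228 (MS1210.1) and 321 (MS1349.1), against 27.4 to 308 (median 92.6) in the AC(NST). Of the 5 members that were not tested, Elane was at 0 in both ASQC, Ly6g at 0 and 1.46, and Mpo at 0 and 2.19. Cxcr2, the neutrophil chemokine receptor, had 75.3 (MS1210.1) and 78.9 (MS1349.1) and 1.29 to 29.9 (median 9.89) in the AC(NST), above all AC(NST) and not called. The part of neutrophils in the called alarm genes was not tested.

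The luminal list had 0 called genes by edgeR among 30 tested, 5 of them at an unadjusted p under 0.05, and DESeq2 called 1, as did edgeR without MS1166.1. Log2 folds ran from -3.97 to 4.01 with a median of 0.43. Summed levels were 183635 (MS1210.1) and 193090.0 (MS1349.1), above the 95407 to 135398 of the high-amplified AC(NST) and below the 251314 of MS1166.1. Krt8 had 19340.1 (MS1210.1) and 29166 (MS1349.1) and 7841 to 37468 (median 13072) in the AC(NST), and Epcam 11933 (MS1210.1) and 8381 (MS1349.1) and 7106 to 15685 (median 8561) in the AC(NST). Krt18 and Krt19 overlapped likewise, with 20807 (MS1210.1) and 17329 (MS1349.1) and 98.6 to 25709 (median 2815) in the AC(NST) for Krt19. In 8 of the 9 luminal genes in which both ASQC exceeded all high-amplified AC(NST), MS1166.1 did so too. Per kilobase of exon, Krt8 stood at 9877 normalized counts in MS1210.1, below Krt14 at 29413, and at 14896 in MS1349.1, above Krt14 at 2913. Simple and stratified keratins were thus counted side by side in each ASQC.

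Milk genes separated the 2 ASQC from each other rather than from the AC(NST). They took 1.23% of all counts in MS1210.1, 11.4% in MS1349.1 and 0.362% to 2.21% in the AC(NST). Csn2, beta-casein, had 158 (MS1210.1) and 420672 (MS1349.1), and Wap, whey acidic protein, 3.52 (MS1210.1) and 32692 (MS1349.1). Glycam1 had 6.33 (MS1210.1) and 196206 (MS1349.1) and Csn1s2b 0.703 (MS1210.1) and 5444 (MS1349.1), and both were called (log2 fold 12.42 ± 2.40 SE, edgeR adjusted p = 0.0488 for Glycam1). MS1210.1 lay within the AC(NST) range of Glycam1, 0 to 75.9, and below that of Csn1s2b, 1.24 to 25.9. Both calls were lost without any 1 tumour other than MS1210.1. Leaving the milk genes out before scaling gave 144 genes higher and 3 lower. Csn3, kappa-casein, had 2463 (MS1210.1) and 114921 (MS1349.1) and 1513 to 118257 (median 50305) in the AC(NST) and overlapped.

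Genes of the other cell types gave no calls. Myoepithelium, fibroblast, endothelium, macrophage, T and NK cell, B and plasma cell, adipocyte, skeletal muscle, melanocyte, Schwann cell, EMT and cell cycle lists held 0 genes called by edgeR, with at most 2 members each at an unadjusted p under 0.05. Their median log2 folds ran from -3.04 for skeletal muscle to 0.62 for T and NK cells. Acta2, the actin of myoepithelium and smooth muscle, had 1423 (MS1210.1) and 1852 (MS1349.1) and 479 to 11087 (median 858) in the AC(NST), and Myh11 202 (MS1210.1) and 565 (MS1349.1) and 69 to 1455 (median 333) in the AC(NST). Both of these contractile genes thus overlapped between the groups. In 1 of the 13 members of the myoepithelium list both ASQC lay below all AC(NST), as in 4.91% of all tested genes. The list summed to 6378 (MS1210.1) and 7062 (MS1349.1), against 6599 to 30868 in the AC(NST). Summed levels of the fibroblast list were 143889 and 66942, against 54239.6 to 449456 in the AC(NST), where MS1218.2 was the highest. The same tumour was the highest of the AC(NST) for the endothelium and macrophage lists. Of the 2 melanocyte genes closest to pigment, Tyrp1 was at 0 in both ASQC and Dct at 0 and 0.731. Mki67, the proliferation marker, had 3154 (MS1210.1) and 3866 (MS1349.1) and 1726 to 6246 (median 3485) in the AC(NST).

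**Figure D4:**
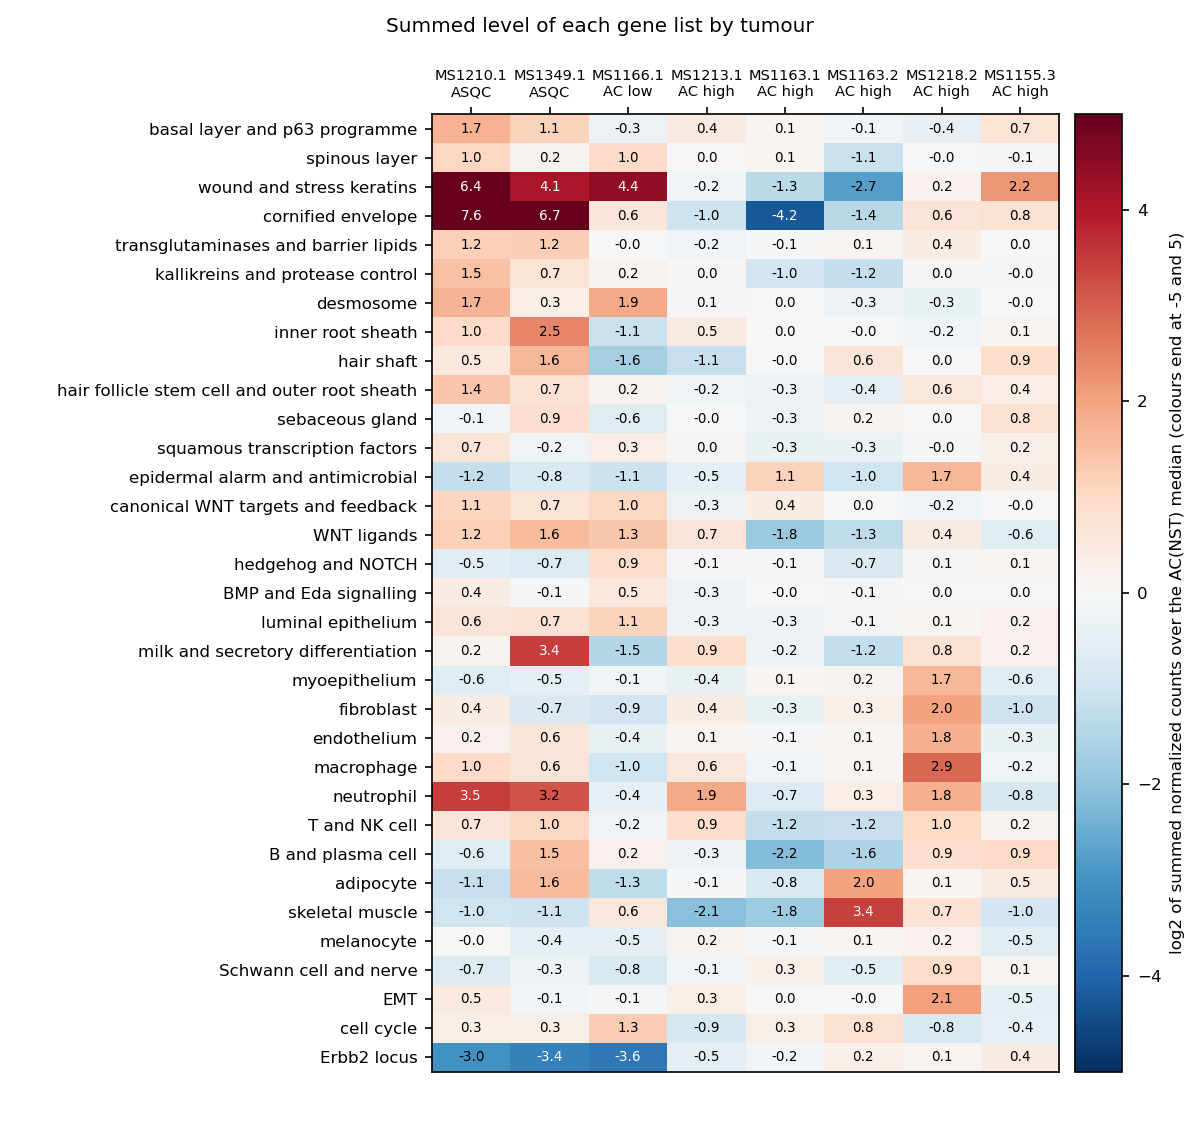
Log2 of the summed normalized counts of each gene list (rows) in each tumour (columns) over the median of the 6 AC(NST), where AC low is the not/low-amplified MS1166.1 and AC high the high-amplified tumours. Sums are led by the most abundant members of a list. The cornified envelope sum was led by Asprv1 in MS1210.1 and by Tchh, which is also in the inner root sheath list, in MS1349.1. Cornified envelope sums were 49302 and 26040.2 normalized counts in the ASQC and 13.6 to 434 in the AC(NST), and fibroblast, endothelium and macrophage sums were highest in MS1218.2.

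Erbb2 and its neighbours Grb7 and Mien1 had lower counts in the ASQC and in MS1166.1 than in every high-amplified AC(NST). Erbb2 had 2783 (MS1210.1) and 1943 (MS1349.1), 1532 in MS1166.1 and 5284 to 105019 in the high-amplified AC(NST). Grb7 had 831 (MS1210.1) and 353 (MS1349.1) and 842 in MS1166.1, and Mien1 1073 (MS1210.1) and 373 (MS1349.1) and 590.0. None of the 15 tested genes of the locus was called between ASQC and AC(NST) by edgeR, and 7 had an unadjusted p under 0.05. Reads from the rat NeuNT sequence may align in part to mouse Erbb2, so its level is that of reads placed on the mouse gene.

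The 2 ASQC differed from each other by list. Among 11240 genes with at least 100 normalized counts in an ASQC, 713 (6.34%) were over 2-fold higher in MS1210.1 and 670 (5.96%) in MS1349.1. In MS1349.1, 9 of 14 inner root sheath genes and 13 of 17 hair shaft genes were over 2-fold higher, and 0 of either list in MS1210.1. Tchh was 3292 against 15830.0 and Krt73 537 against 2343 normalized counts. In MS1210.1, 3 of 4 wound keratins, 9 of 17 protease genes and 8 of 16 desmosome genes were over 2-fold higher, against 0, 0 and 2 in MS1349.1. Krt14 was 51708 against 5122, Krt79 16802 against 1204 and Asprv1 31158 against 3966. Fibroblast genes were over 2-fold higher in MS1210.1 in 8 of 14 cases and adipocyte genes in MS1349.1 in 6 of 7, and whether these cells bear on the other lists was not tested. The envelope list itself was split, with 4 of 9 genes higher in MS1210.1 and 3 in MS1349.1. The outer root sheath list was split as well, with 2 of 10 genes over 2-fold higher in MS1210.1 against 3 in MS1349.1. Among the desmosome genes Dsc1 and Dsg4 were over 2-fold higher in MS1349.1. With 1 library per tumour, these ratios have no replicate check, and no test was run on them.

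**Figure D5:**
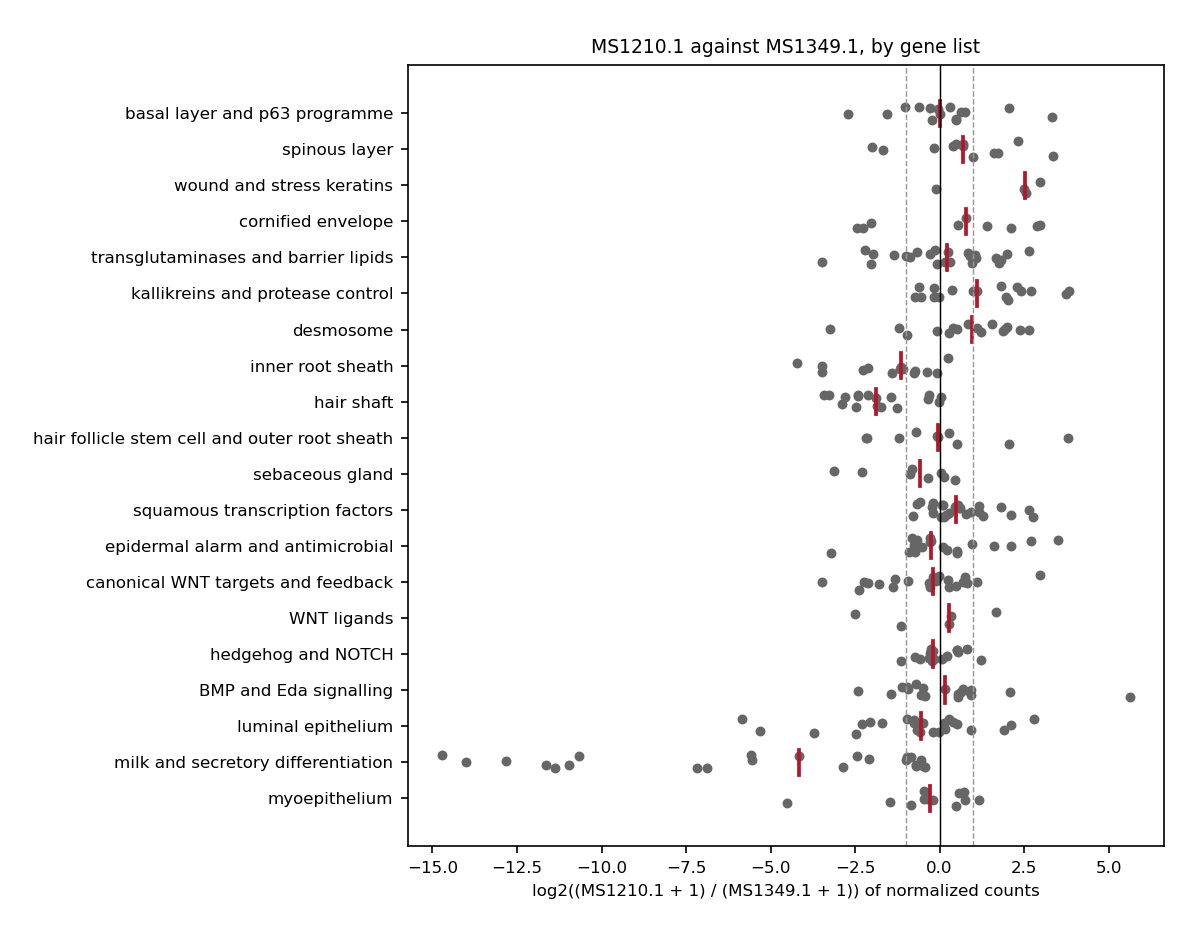
Log2 ratio of MS1210.1 to MS1349.1 (1 added to each normalized count, x axis) for list members with at least 100 normalized counts in an ASQC, by list, with the median as a bar and 2-fold differences as dashed lines. Inner root sheath, hair shaft and milk genes lie towards MS1349.1, and wound keratins and protease genes towards MS1210.1.

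Many called genes were neighbours on their chromosomes. Of 145 called genes with a position, 55 lay in 9 stretches of at least 3 called genes with no gap over 1 Mb. Each stretch runs from its first to its last called gene, so the called share inside it was raised by how it was drawn. The filter bears on it too, since 13 of the 16 tested cornified envelope genes had passed through the ASQC alone. Whether called genes clustered more than other genes was not tested. The stretch in the epidermal differentiation complex on chromosome 3 (GRCm38, 92122204 to 93471980) held 12 called genes, including Rptn, Tchh, Ivl and Sprr1a, among 15 tested and 51 tested or not. The type I keratin stretch on chromosome 11 (99315516 to 100088226) held 10 of 15 tested (45 tested or not), from Krt25 to Krt32. The type II stretch on chromosome 15 (101347444 to 101954287) held 8 of 19 tested (27 tested or not). The desmosomal cadherins stood on chromosome 18 (19960930 to 20547459), with 6 of 8 tested genes called, and the Tmprss11 proteases on chromosome 5 (86302217 to 86745815), with 5 of 6. Smaller stretches held 4 Il1f cytokines and Cysrt1 on chromosome 2, with 5 of 21 tested genes called, and S100a7a, S100a9 and Pglyrp4 on chromosome 3, with 3 of 4. These stretches are the family clusters of the genome, so their members share sequence and are not independent items.

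Few genes were lower in ASQC. Wnk4, a kinase of ion transport, fell to 14.1 (MS1210.1) and 5.84 (MS1349.1), against 381 to 1423 (median 555) in the AC(NST) (log2 fold -6.05 ± 0.82 SE, edgeR adjusted p = 0.00962). Chrm1, a muscarinic acetylcholine receptor, fell to 14.8 (MS1210.1) and 14.6 (MS1349.1), against 264 to 1046 (median 521) in the AC(NST) (log2 fold -5.39 ± 0.78 SE, edgeR adjusted p = 0.0131). Adamts10, a secreted metalloprotease, fell to 137 (MS1210.1) and 163 (MS1349.1), against 397 to 1340.0 (median 988) in the AC(NST) (log2 fold -2.68 ± 0.52 SE, edgeR adjusted p = 0.049). In all 3 both ASQC lay below every AC(NST), MS1166.1 included. DESeq2 on the same counts called 225 genes lower and 287 higher.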

How the data were processed

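RNA from 9 snap-frozen tumours was depleted of ribosomal RNA and sequenced on an Illumina HiSeq from strand-specific libraries. As the study's methods state, the authors aligned reads to GRCm38 with STAR, keeping reads with a unique position and at most 3 mismatches, and counted them per gene with HTSeq. Whether counting used strand is not given in the sources used here, so overlapping and antisense genes cannot be told apart, and near-identical copies (Sprr2, Lce, Krtap, Stfa, Krt6a and Krt6b, Dsg1a and Dsg1b) are uncertain. The deposited values are raw counts for 18484 genes. Flg stands on 4 rows and was not counted in its list.

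The 2 ASQC and 6 AC(NST), grouped by diagnosis label, were compared with edgeR 4.0.16 (quasi-likelihood test, TMM scaling, R 4.3.3) over genes that reached 10 counts in 2 or more tumours, and called at an adjusted p under 0.05 and a fold over 2. P-values were adjusted by Benjamini-Hochberg over all tested genes. The SE printed with a log2 fold was derived from the test, as the absolute log2 fold divided by the square root of the F statistic. It is not a separately fitted error. Normalized counts are counts divided by median-of-ratios size factors. DESeq2 1.42.0 and limma 3.58.1 (voom), other filters, scalings, samples and covariates were alternatives. The fit was tested on simulated counts. Intervals and floors cover counting error only, and a count of 0 was taken to allow 3 reads. Depth was 12501225 to 23912429 counted reads. Promoters and motifs came from RefSeq tables, searched in Python 3.11.15.

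The tumours, gene lists and tests were chosen with earlier results of these data known. Genes were named by rule: the 10 largest folds in each direction among called genes without overlap, from each list the called members and the 4 with the highest mean, genes the study discusses, and per list the largest ratio between the 2 ASQC in each direction. Not every gene so picked is printed. Every other gene named was chosen after its values were seen, among them Krt5, Col17a1, Klf4, Grhl3, Krt2, Krt10, Lor, Tgm1, Hoxc13, Hey1 and Wnt10a.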

Additional observations from a re-analysis of the deposited data

Results flagged for a closer look

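In 12 of 90 genes and list sums examined over the 6 AC(NST), 1 tumour stood apart from the other AC(NST) by Dixon's criterion (on log2 of normalized counts plus 1). Chance gives such a gap in about 1 in 20 groups, and many of the items share genes or tumours.

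MS1166.1 had the highest sum of the desmosome list (117391 normalized counts), of the BMP and Eda list with its FGF and EGF-family genes (15129) and of the luminal list (251314). It had the lowest sum of the Erbb2 locus (9604). MS1218.2, the tumour excepted in the purity statement, had the highest sums of the myoepithelium (30868), endothelium (22472) and EMT (195595) lists, and the most Apcdd1 (301). MS1155.3 had the most Sprr1a (10.3) and Defb1 (20.6) of the AC(NST). MS1163.2 had the most Krt27 (7.46) and Krt31 (4.97). In each of these 5 genes both ASQC still lay above the tumour that stood apart.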

How the results depend on the processing

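The number of genes higher in ASQC (146) became 287 with DESeq2, 221 with limma-voom, 85 at a mean count of 50, 31 at 10 counts in 3 tumours and 92 with the tumours of the same mouse summed. It was 83 without the tumour of low purity, 19 with parity as a covariate, 7 among parous tumours, and 0 with amplification as a covariate or among not/low-amplified tumours alone. The number lower (3) became 225 with DESeq2, 5 with limma-voom, 47 against high-amplified AC(NST) alone, 1 with parity and 0 with amplification as a covariate, and 0 among parous or not/low-amplified tumours alone. Leaving out each tumour in turn gave 56 to 204 higher and 0 to 47 lower. The cause was not tested, but fewer samples or genes entered several of these fits. DESeq2 shared 137 of the 146 higher genes and limma-voom 126. With no filter, other scaling, thinned libraries or the milk genes left out, both counts stayed within 1.5 times. Of 42 called genes whose fold or adjusted p is given, 38 of the 40 with an adjusted p from DESeq2 were called by it, and 22 were called without MS1218.2, 14 without MS1210.1 and 20 without MS1349.1. Of the same 42 genes, 9 were called with parity as a covariate and 2 among parous tumours alone. Across 1338 pairs of gene and alternative, leaving out 8 with no adjusted p from DESeq2, 1 changed direction: Glycam1 without MS1349.1 (-1.47). No paired analysis was possible because no mouse gave both an ASQC and an AC(NST). Depth limits genes with few reads in the AC(NST).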

Other observations

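The 80 genes called higher in ASQC that belonged to no list were genes of several other functions. Mmp7 and Prr9 are named by rule, being among the 10 largest folds. All of the others named here were chosen after their values were seen. Stra6, the membrane receptor for retinol transport, had 19029 (MS1210.1) and 5832 (MS1349.1), against 26.2 to 177 (median 45.3) in the AC(NST). Ahr, the aryl hydrocarbon receptor, had 11783 (MS1210.1) and 11314 (MS1349.1), against 1312 to 2615 (median 1853) in the AC(NST), and was nearly equal in both ASQC. Aldh1a1, which makes retinoic acid, had 590.1 (MS1210.1) and 1713 (MS1349.1), against 34.6 to 95.3 (median 84.1) in the AC(NST). In each of these 3 genes both ASQC lay above every AC(NST).

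Mmp13, a collagenase, had 16546 (MS1210.1) and 505 (MS1349.1), against 56.7 to 183 (median 77.4) in the AC(NST), whereas Mmp7, matrilysin, had 257 (MS1210.1) and 4201 (MS1349.1), against 0 to 16.4 (median 0) in the AC(NST). The acute phase gene Saa3 had 4416 (MS1210.1) and 6994 (MS1349.1), against 50.2 to 198 (median 69.5) in the AC(NST). Gata2, a transcription factor of blood and other lineages, had 725 (MS1210.1) and 3598 (MS1349.1), against 15.5 to 108 (median 24.7) in the AC(NST). Prr9, a proline-rich gene of the epidermal differentiation complex, had 702 (MS1210.1) and 5973 (MS1349.1), against 0 to 3.73 (median 0) in the AC(NST). Scel, sciellin, a precursor of the envelope that was not in the list, had 1762 (MS1210.1) and 241 (MS1349.1), against 1.19 to 6.21 (median 3.83) in the AC(NST). Fzd10, a WNT receptor, had 261 (MS1210.1) and 216 (MS1349.1), against 1.24 to 16.7 (median 8.93) in the AC(NST).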
